A study of Mus musculus with 2 samples.

Results

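The hematopoietic stem cell transcription factor core comprises Tal1, Lyl1, Lmo2, Gata2, Runx1, Erg, Fli1, Mecom, Etv6 and Hlf. The members were chosen by name, as regulators with established roles in HSCs, with earlier results of these data known. All 10 were found among the 23284 genes of the files. RNA-seq was conducted on lineage marker-negative, Sca1-positive, c-kit-high (LSK) CD48– cells, a fraction enriched for HSCs, from mouse fetal liver (FL) at E14.5 (embryonic day). One library came from WT fetuses and 1 from ESAM-null fetuses, which lack endothelial cell-selective adhesion molecule (ESAM) through a conventional knockout, so that endothelial cells and every other tissue carried the deletion as well as the HSCs. No treatment other than genotype separates the groups. How many fetuses and cells went into each library was not given in the sources used here. Sample labels describe sorted cells plated in methylcellulose and incubated, whereas in the study the RNA-seq stands for freshly sorted FL cells, and the values were read as such.

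These factors bind enhancers of blood genes together and regulate each other's genes. Tal1 and Lyl1 are basic helix-loop-helix (bHLH) proteins that pair with an E protein on E-box DNA, and Lmo2 and Ldb1 bridge that pair to a GATA factor. Erg, Fli1 and Etv6 are Ets factors, Runx1 binds DNA together with Cbfb, and Mecom and Hlf are a zinc finger protein and a PAR basic leucine zipper (bZIP) protein linked to HSC quiescence and self-renewal. Fetal HSCs depend on several of them, and members of the group are frequent partners in leukemia fusion genes.

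Expression was given as FPKM, a read count corrected for transcript length and library size, so levels of different genes can be set side by side. The lowest values fell on steps of whole reads, from which about 9300657 reads stood behind the WT values and about 10116581 behind the ESAM-null values on the authors' normalized scale. A whole read was met to within 0.05 by 73.2% of the low genes examined in WT and by 71.1% in ESAM-null, so the read numbers given below are approximate. All 95% intervals were computed from these reads and leave out every error but counting, as reads that are PCR copies are not independent molecules. Because each genotype has 1 library, no difference has a replicate check, no p-value was computed, and the comparison is between 2 libraries. In a bulk library, fewer cells of a type and less RNA per cell cannot be told apart.

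Esam itself was 117.6 FPKM in WT and 12.1 in ESAM-null, 9.69-fold lower, which follows the labels. This is a value for the gene as a whole, and the exons behind the residual reads are not resolved. Of the genes behind the sorting gate, Kit was 94.4 FPKM in WT and 76.4 in ESAM-null, Ly6a (Sca1) was 99.8 and 96.7, and Cd48 was 16.6 and 22.0. Markers of other cell types were read beside these. The 8 hepatocyte markers summed to 42.0 FPKM in WT and 37.1 in ESAM-null, most of it from Trf at 32.5 and 22.8, and Alb was 1.04 FPKM in WT and at 0 in ESAM-null, whereas Apoa1 was 1.09 and 7.52 and Afp 4.35 and 6.69. The 8 macrophage markers summed to 15.2 FPKM in WT and 10.6 in ESAM-null. Of these, 4 were at 0 in ESAM-null and none in WT. They were Adgre1 (F4/80, 0.698 FPKM in WT), C1qa (2.91 FPKM in WT), Cd5l and Vcam1. C1qb (3.85 FPKM in WT and 1.94 in ESAM-null) and Mrc1 were lower as well. Only Csf1r, at 2.17 and 3.59 FPKM, and C1qc, at 3.38 and 5.07, were higher in ESAM-null. The 13 megakaryocyte markers summed to 268.3 FPKM in WT and 245.5 in ESAM-null. Of the 10 that reached 1 FPKM in either library, 2 passed 2-fold downward and 2 upward. Among all genes that reached 1 FPKM in either library, these shares were 12.8% and 7.42%. Gp5 was among the former, with 2.89 FPKM in WT and 0.541 in ESAM-null, about 54 and 11 reads. Clec1b (0.490 and 2.63 FPKM) and Ppbp (1.46 and 3.69) were the latter. Gp9 was 57.8 FPKM in WT and 65.9 in ESAM-null and Pf4 was 19.5 and 22.8, levels within the range of the core.

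Upstream sequence was examined for the members whose values the results turn on. Erg had the largest difference of the 10, and Tal1 and Lyl1 are close relatives whose values went in opposite directions. RefSeq windows of the 250 bases before an annotated start on GRCm38.p6 were matched for 8 of the 10 members, in 14 windows, and not for Fli1 or Lmo2. The sequences run 5′ to 3′ on the strand of the gene. Capitals mark GATAA (the GATA factor core), GGAAG (the Ets core) or CAGNTG (an E-box), on either strand, so that TTATC and CTTCC are the first and the second of these read on the other strand.
Erg, chr16:95459349-95459598, minus strand: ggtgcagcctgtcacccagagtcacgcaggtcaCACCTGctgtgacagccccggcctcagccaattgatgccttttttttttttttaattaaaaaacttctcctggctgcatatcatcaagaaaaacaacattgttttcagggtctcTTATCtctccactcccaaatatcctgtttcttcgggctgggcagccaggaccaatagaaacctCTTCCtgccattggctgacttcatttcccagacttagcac
Lyl1, chr8:84701207-84701456, plus strand: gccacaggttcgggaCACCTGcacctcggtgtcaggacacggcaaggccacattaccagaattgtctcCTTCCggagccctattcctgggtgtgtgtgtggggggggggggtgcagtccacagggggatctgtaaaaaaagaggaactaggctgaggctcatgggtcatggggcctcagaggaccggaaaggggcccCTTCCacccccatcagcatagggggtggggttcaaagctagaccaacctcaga
Tal1, chr4:115056176-115056425, plus strand: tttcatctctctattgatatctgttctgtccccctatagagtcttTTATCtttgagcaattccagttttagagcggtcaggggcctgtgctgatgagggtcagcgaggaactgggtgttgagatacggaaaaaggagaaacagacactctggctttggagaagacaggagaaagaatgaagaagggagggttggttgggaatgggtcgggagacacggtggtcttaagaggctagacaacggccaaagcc
The Erg window lies inside the gene, before an internal start, and overlaps none of its annotated exons. It is 1 of 3 Erg windows and was chosen for its motifs. The Lyl1 and Tal1 windows lie directly before the first annotated start, and Tal1 has 1 further window.

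In the Erg window shown, all 3 motifs were present, each at 1 position, and it was the only one of the 14 windows with all 3. Of the other Erg windows, 1 held GGAAG alone and the one before the first start held none of the motifs. Such windows with all 3 made up 6.07% of the 32851 RefSeq windows of this length. The Lyl1 window held GGAAG at 2 positions and CAGNTG at 1, and the Tal1 window shown held only GATAA, at 1 position, while the other Tal1 window held only GGAAG. Of the 14 windows, 4 held GATAA, 7 held GGAAG and 5 held CAGNTG, and these motifs were in 22.6%, 64.1% and 44.8% of all windows. The Runx core TGTGGT was in none of the 14 windows and in 14.05% of all windows. None of the 4 motifs contains another. A match is a description of the letters in the window and says nothing of binding, and the lack of a match says only that the letters are not in these 250 bases.

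All 10 factors were well above the detection limit in both libraries. Lmo2 stood far above the others at 578.6 FPKM in WT and 582.4 in ESAM-null, and made up 63.2% of the summed level of the core in WT and 66.6% in ESAM-null. The other members spanned 11.2 to 63.1 FPKM in WT and 7.84 to 70.02 in ESAM-null. In WT, only 0.846% of all genes had a higher level than Lmo2, whereas 28.4% were higher than Tal1, the lowest of the core. The order in WT ran from Lmo2 through Fli1, Gata2, Hlf, Etv6, Mecom, Runx1, Erg and Lyl1 to Tal1, and among neighbours only Fli1 and Gata2 had overlapping counting intervals. In ESAM-null, Gata2 stood above Fli1, and Lyl1 stood above Runx1 and Erg, although its interval overlapped those of its neighbours Mecom and Runx1. The other members kept their relative order.

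**Figure D1:**
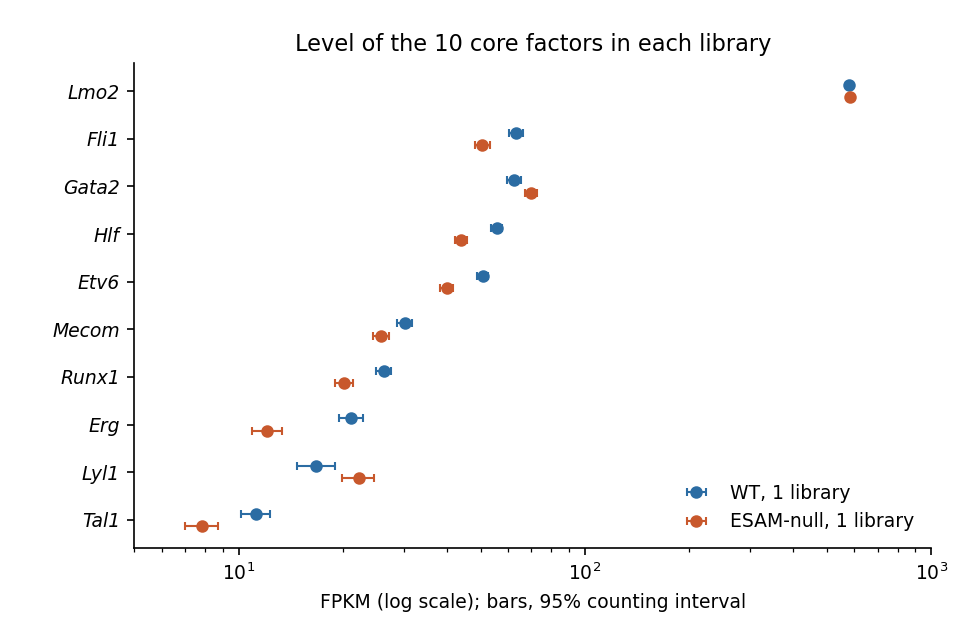
FPKM (log scale) of the 10 core factors in the WT library (blue) and the ESAM-null library (orange), 1 library each, with bars for the 95% counting interval. Lmo2 lies near 580 FPKM in both libraries (578.6 and 582.4), Erg shows the widest gap (21.1 and 12.1 FPKM), and Lyl1 and Gata2 are higher in ESAM-null beyond their counting intervals.

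Between the libraries, no core factor differed by 2-fold. Of the 10 members, 7 had a lower value in ESAM-null and 3 a higher one. Only Erg was at least 1.5-fold lower and none was 1.5-fold higher. Of all 12066 genes that reached 1 FPKM in either library, 12.8% were 2-fold or more lower in ESAM-null and 7.42% 2-fold or more higher, and at 1.5-fold these shares were 21.8% and 17.4%. Among the 7321 genes with at least 10 FPKM in either library, the range in which all members lie, these shares were 4.75% and 2.75% at 2-fold and 12.4% and 14.6% at 1.5-fold. The count of 1 in 10 at 1.5-fold lower is therefore near the share in genes of like level. The median log2 ratio of ESAM-null to WT was -0.33 for the core, against 0.01 over genes with at least 1 FPKM (quartiles -0.44 and 0.41) and 0.08 over genes with at least 10 FPKM (quartiles -0.28 and 0.40). For 9 of the 10 members, all but Lmo2, the counting interval of the ratio excluded 1. With about 249 reads or more per value, such an interval can exclude 1 at a small difference, as for Gata2 at 1.12-fold. Neither the share of all genes whose interval excludes 1 nor the share with any lower value was computed.

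**Figure D2:**
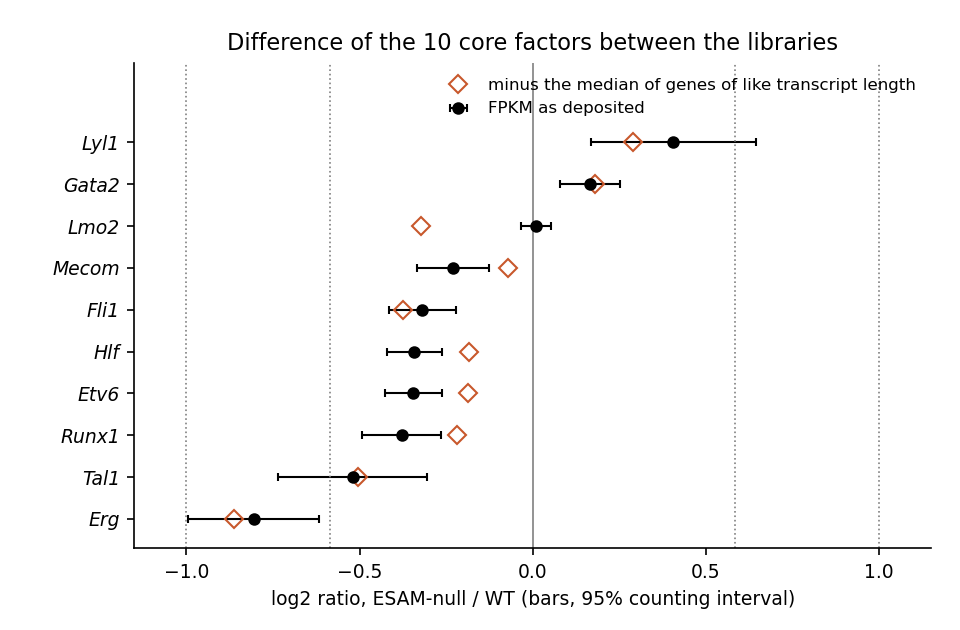
Log2 ratio of ESAM-null to WT for each core factor, with bars for the 95% counting interval (filled circles, FPKM as deposited), and the same value minus the median of genes of like transcript length (open diamonds). Dotted lines mark 1.5-fold and 2-fold. Values run from -0.81 for Erg to 0.41 for Lyl1, and only Erg lies beyond 1.5-fold.

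The bHLH factors Tal1 and Lyl1 differed in direction. Tal1, at chr4:115056426-115071755 of mm10, is required to establish blood cells in the embryo. It was 11.2 FPKM in WT and 7.84 in ESAM-null, from about 419 and 318 reads, a value 1.43-fold lower in ESAM-null (interval 1.24 to 1.66). Lyl1, at chr8:84701457-84704715, shares much of Tal1's function in adult HSCs. It was 16.8 FPKM in WT and 22.2 in ESAM-null, from about 249 and 359 reads, 1.32-fold higher (1.12 to 1.56). The sum of both was 28.0 FPKM in WT and 30.04 in ESAM-null. Thus the ratio of Tal1 to Lyl1 within a library, which does not depend on how libraries are scaled, was 0.670 in WT and 0.353 in ESAM-null, 1.90-fold lower (1.52 to 2.38). This ratio and those of the other pairs are not adjusted for transcript length, which is 4213 bases for Tal1 and 1800 for Lyl1. Relative to genes of like length, described below, the log2 ratios were -0.50 for Tal1 and 0.29 for Lyl1, in place of -0.52 and 0.41. In both libraries Lyl1 was the more abundant of the pair. Lyl1 and Nfix, which lies on the opposite strand and was 21.5 FPKM in WT and 14.2 in ESAM-null, share 4 exonic bases, and reads over these cannot be told apart without strand.

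E proteins are the dimer partners of both. Tcf3 was the most abundant of them, with 98.6 FPKM in WT and 87.1 in ESAM-null, followed by Tcf4 with 15.3 and 11.7 and Tcf12 with 15.09 and 15.04. The ratio of Tal1 to Tcf3 was 0.114 in WT and 0.0900 in ESAM-null, 1.27-fold lower (1.08 to 1.49). The Id proteins, which bind E proteins and keep them from DNA, were all higher in ESAM-null. Id1 was 47.3 FPKM in WT and 97.03 in ESAM-null, 2.05-fold higher (1.82 to 2.30), Id2 was 23.2 and 40.5 (1.74-fold, 1.54 to 1.98) and Id3 was 84.7 and 146 (1.73-fold, 1.59 to 1.88). Id4 was listed at 0 in WT and at 4.09 FPKM, about 151 reads, in ESAM-null, at least 46.3-fold higher when WT is set to 3 reads. As deposited, all 4 Id genes were thus past 1.5-fold and 2 of them, Id1 and Id4, past 2-fold. Of all genes with at least 1 FPKM in either library, 17.4% and 7.42% were higher by these folds. The median log2 ratio was 0.80 over the 3 that were above 0 in both libraries and 0.92 with Id4 at its bound. The sum of Id1, Id2 and Id3 was 155.2 FPKM in WT and 283.6 in ESAM-null, and that of Tcf3, Tcf4 and Tcf12 was 129 and 114 FPKM, so the Id to E protein ratio was 1.20 in WT and 2.49 in ESAM-null, 2.07-fold higher. Id1 and Id3 transcripts are short, at 1160 and 1278 bases, and short transcripts as a class were higher in ESAM-null, as described below. In the class with the shortest transcripts, 26.7% of genes with at least 10 FPKM in either library were at least 1.5-fold higher. Relative to genes of like length, the log2 ratios were 0.70 for Id1, 0.69 for Id2 and 0.46 for Id3, in place of 1.04, 0.80 and 0.79. On that scale Id1 was no longer past 2-fold and Id3 no longer past 1.5-fold.

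Lmo2, at chr2:103957986-103981878, is the adaptor of the Tal1 complex and has no DNA-binding activity of its own. It was 578.6 FPKM in WT and 582.4 in ESAM-null, on about 8103 and 8871 reads, a ratio of 1.01 (0.977 to 1.04). This was the narrowest interval of the 10 and the only one that includes 1. Ldb1, which dimerises and links Lmo2 complexes at distant sites, was 88.9 FPKM in WT and 56.6 in ESAM-null, 1.57-fold lower (1.48 to 1.67). The ratio of Lmo2 to Ldb1 was therefore 6.51 in WT and 10.3 in ESAM-null, 1.58-fold higher (1.47 to 1.70). The relatives Lmo1 (33.4 FPKM in WT and 29.8 in ESAM-null) and Lmo4 (23.7 and 24.1) had counting intervals that include no difference, and Lmo3 was listed at 0 in both libraries.

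Gata2, at chr6:88193891-88207032, is the GATA factor of stem and progenitor cells, and its product gives way to Gata1 at GATA sites during erythroid differentiation. Gata2 was 62.4 FPKM in WT and 70.02 in ESAM-null, on about 1956 and 2387 reads, 1.12-fold higher (1.06 to 1.19). Gata1, the factor of erythroid cells and megakaryocytes, was 4.64 FPKM in WT and 6.95 in ESAM-null, 1.497-fold higher (1.12 to 2.05). The ratio of Gata2 to Gata1 was 13.4 in WT and 10.1 in ESAM-null. Its interval, 0.992 to 1.84-fold lower, includes no difference. Gata3 was 7.72 FPKM in WT and 7.68 in ESAM-null. Gfi1b, a repressor gene of the erythroid and megakaryocyte lineages that binds many of the same sites, was 23.5 and 37.5 FPKM, 1.59-fold higher (1.40 to 1.82). Of the 11 erythroid markers, none of them a globin gene, 4 were at least 1.5-fold higher in ESAM-null and 3 at least 1.5-fold lower. At 2-fold, 2 were higher and 3 lower. Of all genes with at least 1 FPKM in either library, 17.4% and 21.8% passed 1.5-fold in these directions, and 7.42% and 12.8% passed 2-fold. Klf1, with 4.16 FPKM in WT and 20.3 in ESAM-null, was among the higher. The 3 lower were Alas2 (8.08 and 0.282 FPKM), Slc4a1 (6.08 and 0.471) and Trim10 (2.86 and 0). The 11 summed to 64.2 FPKM in WT and 78.7 in ESAM-null. For globin genes, the study reported lower adult and embryonic transcripts in ESAM-null HSCs. Of 10 mast cell and basophil markers, a lineage that also uses Gata2, 6 were at 0 in both libraries, among them Fcer1a and Ms4a2. The list summed to 1.47 FPKM in WT and 4.37 in ESAM-null, mostly from Cpa3 at 1.11 and 3.83, about 13 and 48 reads. Mitf was lower in ESAM-null (0.362 and 0.201 FPKM), and Cma1 and Tpsb2 were higher on about 2 and 1 reads. The part of these cells in the GATA values was not tested.

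Runx1, at chr16:92601466-92826149, is required for HSCs to emerge from hemogenic endothelium. It was 26.2 FPKM in WT and 20.2 in ESAM-null, on about 1380 and 1155 reads, 1.30-fold lower (1.20 to 1.41). Its partner Cbfb, which strengthens DNA binding, went the other way, with 40.03 FPKM in WT and 58.2 in ESAM-null, 1.45-fold higher (1.34 to 1.58). The ratio of Runx1 to Cbfb was hence 0.655 in WT and 0.347 in ESAM-null, 1.89-fold lower (1.69 to 2.12), close in size to the difference of Tal1 to Lyl1. The other Runx genes were also lower in ESAM-null. Runx2 was 6.92 FPKM in WT and 4.07 in ESAM-null, 1.70-fold lower (1.45 to 1.99). Runx3 was 4.403 and 0.741 FPKM, 5.94-fold lower (3.90 to 9.12), resting on about 151 and 28 reads. The 3 genes summed to 37.5 FPKM in WT and 24.98 in ESAM-null, 1.503-fold lower, with Runx1 the most abundant in both libraries.

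**Figure D3:**
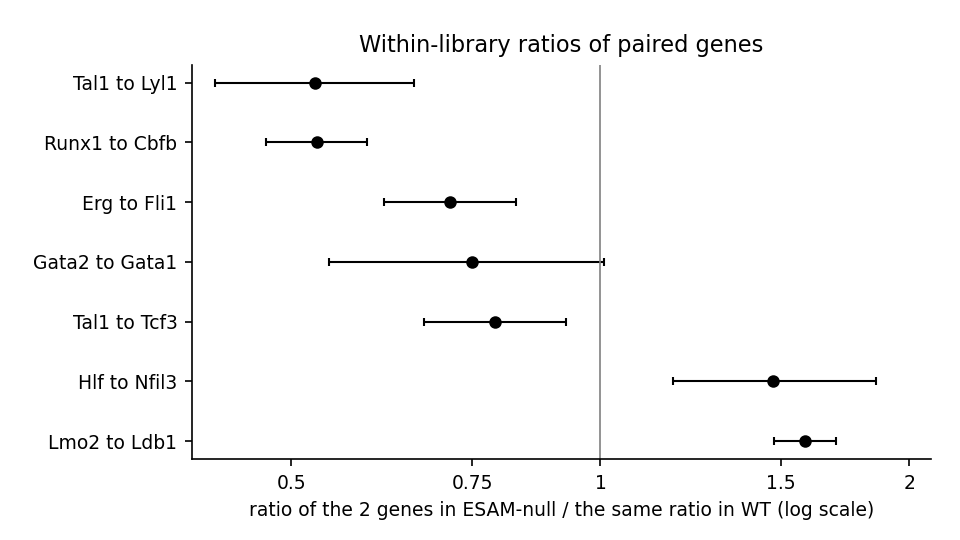
Ratio of the paired genes within the ESAM-null library divided by the same ratio within WT (log scale), with bars for the 95% counting interval. The ratios are not adjusted for transcript length. Tal1 to Lyl1 and Runx1 to Cbfb lie lowest at 0.527 and 0.529, Lmo2 to Ldb1 and Hlf to Nfil3 lie above 1 at 1.58 and 1.47, and only the bar of Gata2 to Gata1 reaches 1.

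The Ets members of the core were all lower in ESAM-null. Erg, at chr16:95359169-95586593, maintains adult and fetal HSCs. It was 21.1 FPKM in WT and 12.1 in ESAM-null, on about 599 and 373 reads, 1.75-fold lower (1.53 to 1.99). Only 7.58% of the genes with at least 10 FPKM in either library had a lower ratio than Erg. Fli1, its closest relative, which also drives megakaryocyte and endothelial genes, lies at chr9:32422204-32542861. It was 63.1 FPKM in WT and 50.6 in ESAM-null, 1.25-fold lower (1.16 to 1.33). The difference was smaller than for Erg, and the ratio of Erg to Fli1 was 0.335 in WT and 0.239 in ESAM-null, 1.40-fold lower (1.21 to 1.63). The sum of both was 84.2 FPKM in WT and 62.7 in ESAM-null. Etv6, at chr6:134035700-134270158, is an Ets repressor needed for HSC survival in bone marrow. It was 50.6 FPKM in WT and 39.9 in ESAM-null, from about 2592 and 2220 reads, 1.27-fold lower (1.20 to 1.34).

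Lower values were also found for most of the Ets genes read outside the core. Of 12 such relatives, a tally made after their values were seen, 10 were lower in ESAM-null, 5 of them by at least 1.5-fold, and 2 were higher. Ets1 differed most, with 5.63 FPKM in WT and 0.806 in ESAM-null, 6.99-fold lower (4.97 to 9.97), resting on about 256 and 40 reads. Elf2 (25.6 FPKM in WT and 15.8 in ESAM-null), Gabpa (15.4 and 9.85), Elf4 (12.3 and 7.41) and Elk4 (5.63 and 3.18) made up the rest of those past 1.5-fold, a fold that 21.8% of all genes passed downward. Relative to genes of like length, Ets1 (log2 ratio -2.65) and Elk4 (-0.81) stayed past 1.5-fold, and Elf4 (-0.58), Elf2 (-0.53) and Gabpa (-0.49) did not. Spi1, which encodes PU.1 and was the most abundant at 207.5 FPKM in WT and 155.6 in ESAM-null, was 1.33-fold lower. Elf1 (48.0 and 46.9 FPKM) and Elk3 (29.6 and 29.3), counted among the lower, had counting intervals that include no difference. Spib was higher, with 0.370 FPKM in WT and 1.28 in ESAM-null, but rested on about 9 and 34 reads. Including Erg, Fli1 and Etv6, the 15 Ets genes summed to 517 FPKM in WT and 398 in ESAM-null. Their median log2 ratio, not adjusted for length, was -0.43, against 0.01 over all genes with at least 1 FPKM in either library.

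Ets1 and Runx3 are abundant in T and NK cells. Of 11 T and NK cell markers, 5 were listed at 0 in both libraries, among them Cd3e and Cd3d, while Cd3g was 1.30 FPKM in WT and 0 in ESAM-null and Cd247 was 0.860 and 0.169. Klrd1 (0.483 FPKM), Il2rb (0.128) and Il7r (0.106), on about 3, 5 and 3 reads in WT, were also at 0 in ESAM-null. The list summed to 13.2 FPKM in WT and 19.7 in ESAM-null, mostly from Nkg7 at 10.3 and 19.5. Nkg7 was the only marker of the list with a higher value in ESAM-null, and all others detected were lower. Erg and Fli1 are also endothelial genes. The 15 endothelial markers, several of which fetal HSCs express, summed to 1029 FPKM in WT and 1056 in ESAM-null, mostly from Egfl7 at 826 and 852. Of the 12 with at least 1 FPKM in either library, 2 reached 1.5-fold lower, Pecam1 with 20.8 FPKM in WT and 12.1 in ESAM-null and Kdr with 1.33 and 0.780, and 2 at least 1.5-fold higher, Cdh5 with 0.954 and 3.33 FPKM and Sox7 with 0.728 and 1.18 FPKM. Of all genes with at least 1 FPKM in either library, 21.8% were at least 1.5-fold lower and 17.4% at least 1.5-fold higher. The part of T, NK or endothelial cells in the Ets and Runx values was not tested.

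Mecom and Hlf mark the most immature HSCs. Mecom, at chr3:29951296-30548008, has 17 annotated transcripts that encode the EVI1 and MDS1-EVI1 forms, and its value sums them. It was 30.2 FPKM in WT and 25.8 in ESAM-null, on about 1543 and 1431 reads, 1.17-fold lower (1.09 to 1.26). Its relative Prdm16, also needed for HSC maintenance, was 5.61 FPKM in WT and 5.00 in ESAM-null, with an interval that includes no difference. Hlf, at chr11:90336536-90390895, was 55.7 FPKM in WT and 43.9 in ESAM-null, on about 2818 and 2418 reads, 1.27-fold lower (1.20 to 1.34). The other PAR bZIP genes were lower as well, with Tef at 14.8 FPKM in WT and 10.3 in ESAM-null and Dbp at 6.92 and 4.57. Nfil3, a bZIP repressor that binds the same sites, was 13.4 and 7.15 FPKM, 1.87-fold lower. The ratio of Hlf to Nfil3 therefore was 4.17 in WT and 6.14 in ESAM-null, 1.47-fold higher (1.18 to 1.86).

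Across all genes the ratio between the libraries followed transcript length. Among genes with at least 10 FPKM in either library, divided into 5 equal classes by length, the class with the shortest transcripts, 76 to 1743 bases, had a median log2 ratio of 0.33 and the class with the longest, from 4445 bases, a median of -0.16. At least 1.5-fold lower values in ESAM-null were found for 5.23% of the shortest class and 21.2% of the longest. Lmo2 (1706 bases) and Lyl1 (1800 bases) have the shortest transcripts of the core, while those of Hlf, Mecom, Etv6 and Runx1 are 5642 to 5861 bases long. Relative to the median of genes of like length, a comparison added after the trend was seen, 8 members were lower and 2, Lyl1 and Gata2, were higher. Erg was at -0.86 and Tal1 at -0.50 on this log2 scale, against -0.81 and -0.52 as deposited, and Fli1 was at -0.37. Lmo2 was at -0.32 in place of 0.01, because short transcripts as a class were higher in ESAM-null. Mecom was at -0.07, Hlf at -0.18, Etv6 at -0.19, Runx1 at -0.22 and Lyl1 at 0.29, each closer to 0 than as deposited. The median of the core was -0.20. Thus the values of Erg, Tal1, Fli1 and Gata2 moved by at most 0.06, and those of the members with the shortest and longest transcripts moved most. The within-library ratios of paired genes were not adjusted for length. Relative to genes of like length, Cbfb was at 0.48, Ldb1 at -0.71 and Nfil3 at -1.02, against 0.54, -0.65 and -0.90 as deposited. On that scale the gap between the genes of a pair was the same for Erg and Fli1 and wider for Hlf and Nfil3. It was narrower for the other pairs. What gave rise to the trend was not tested.

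**Figure D4:**
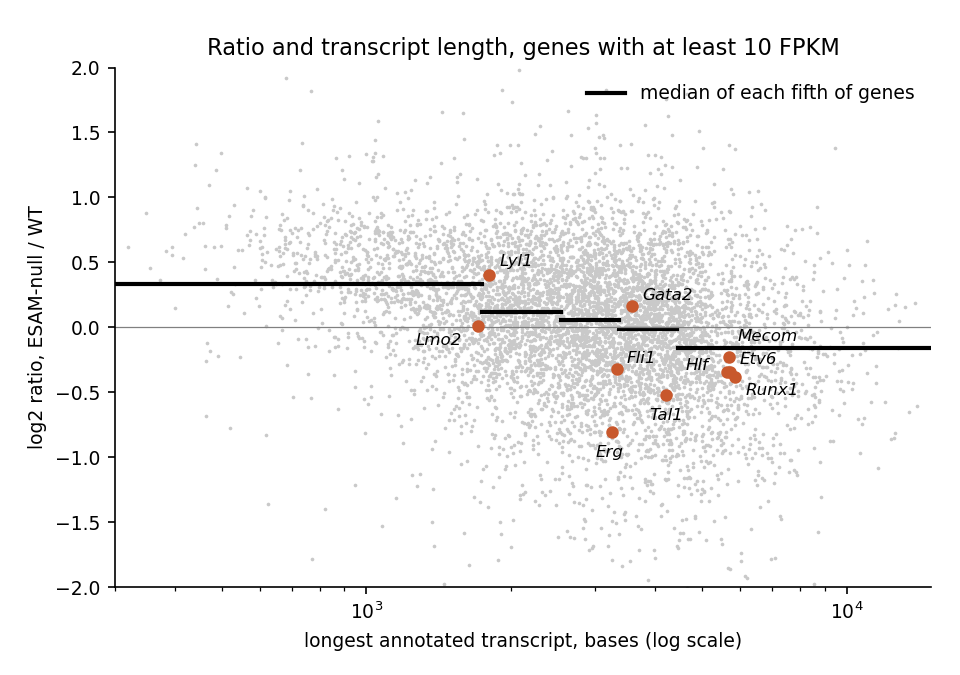
Log2 ratio of ESAM-null to WT against the longest annotated transcript (bases, log scale) for genes with at least 10 FPKM in either library (grey) and the core factors (orange). Black lines are the medians of the 5 length classes, from 0.33 for the shortest to -0.16 for the longest, and genes outside the drawn range are left out. Erg lies well below the line of its class, and Mecom lies close to it.

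The genes around the core were read in the same way from lists, which were also chosen with earlier results of these data known. Over all genes with at least 1 FPKM in either library and above 0 in both, the median log2 ratio was 0.01. Of all genes with at least 1 FPKM in either library, 12.8% were 2-fold or more lower and 7.42% higher. The directions and medians of the lists are not adjusted for transcript length. Of 22 complex partners and cofactors, 21 had at least 1 FPKM in either library, 15 were lower in ESAM-null and 6 higher, and none passed 2-fold. The median log2 ratio was -0.12. Ldb1 and Sin3a, a corepressor scaffold (12.6 FPKM in WT and 6.71 in ESAM-null), were past 1.5-fold, both lower. The most abundant partners were close in both libraries, with Ctbp1 at 180.2 and 179.8 FPKM, Hdac1 at 169 and 187 and Hdac2 at 142 and 140. Of 24 relatives by DNA-binding domain or family, 22 had at least 1 FPKM, 18 of them lower and 4 higher, with a median of -0.44. Those past 2-fold were Ets1, Runx3 and Spib. Among 21 other HSC regulators, 20 had at least 1 FPKM, with 14 lower, 6 higher and a median of -0.17. Sox17, a regulator of fetal HSCs, was the only one past 2-fold, with 2.18 FPKM in WT and 0.800 in ESAM-null from about 62 and 25 reads. The most abundant of this list, Nfe2 (275 and 286 FPKM), Hhex (156.5 and 146.6) and Mycn (137 and 140), were close in both libraries.

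Known target genes of the core were found on both sides. Of 22, 20 had at least 1 FPKM in either library, 8 lower in ESAM-null and 12 higher, with a median log2 ratio of 0.06, near that of all genes. Itga2b, the megakaryocyte integrin CD41, was 5.05 FPKM in WT and 2.23 in ESAM-null, 2.26-fold lower (1.70 to 3.04). Lat2, an adaptor of immune receptor signaling, was 2.69 FPKM in WT, about 38 reads, and at 0 in ESAM-null, at least 13.8-fold lower when ESAM-null is set to 3 reads. These were the only targets past 2-fold. Among the most abundant, Cd34 was 230 FPKM in WT and 240.3 in ESAM-null. Procr, the HSC surface protein EPCR, was 120 and 143 FPKM, while Cdk6, which governs exit from quiescence, was 9.93 and 5.26. Nfe2 and Hhex stand on the lists of regulators and of targets.

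**Figure D5:**
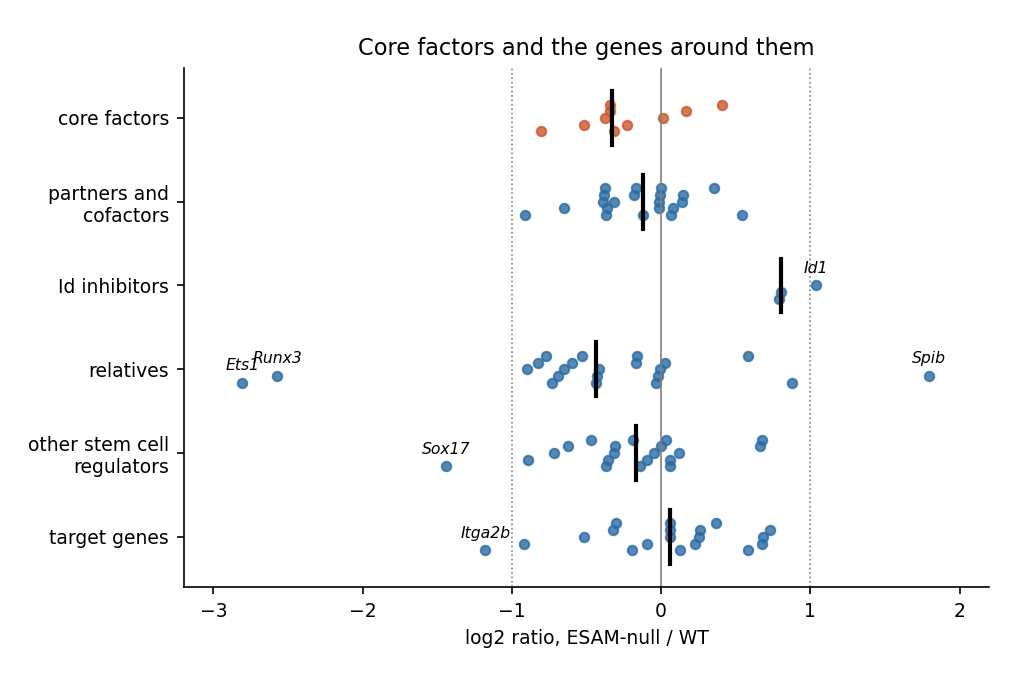
Log2 ratio of ESAM-null to WT for each gene of the core (orange) and of 5 lists around it (blue) with at least 1 FPKM in either library and above 0 in both; black bars are medians and dotted lines mark 2-fold. The core lies between -0.81 and 0.41 with a median of -0.33, the 3 drawn Id genes lie at 0.79 to 1.04, and the relatives reach from -2.81 (Ets1) to 1.80 (Spib).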

How the data were processed

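RNA was extracted with TRIzol, cDNA was made with a SMART-Seq v4 kit, which keeps no strand, and sheared cDNA of 200 to 500 bp was sequenced from 1 end over 75 bp. For 1 WT and 1 ESAM-null library the authors deposited FPKM per gene symbol, in mm10. According to the submitters' processing notes, Cuffnorm 2.2.1, SAMtools 0.1.19, TopHat2 2.0.13 and Bowtie2 2.2.3 were used. Which gene annotation and library normalization were set, and how reads mapping to several places were treated, was not given in the sources used here. An FPKM scale fixed by the total of a library makes every other gene depend on its most abundant ones.

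The deposited FPKM of ESAM-null was divided by that of WT with no pseudocount, and genes were counted past 2-fold and 1.5-fold among those with at least 1 FPKM in either library. Approximate reads were FPKM times effective transcript length times depth, for an assumed fragment length of 200 bp (SD 80). Lengths were from GENCODE M21 on GRCm38, the build of mm10, and were found for 89.7% of genes. Depth was found from the low values among 3490 genes with a single transcript, 205 of them in WT and 135 in ESAM-null. Ratio intervals are 95% exact (Clopper-Pearson), and those of paired genes are exact conditional odds ratio intervals. A gene at 0 was set to 3 reads. On simulated data for 13208 genes, 100% of genes raised or lowered 4-fold were found past 2-fold, 35 of 10302 unchanged genes were called lower and 34 higher, and 95.6% of 2041 intervals held the true ratio. The simulated reads varied by counting error alone, which is the error that the intervals assume. The simulation therefore checks the calculation and says nothing of other variation between libraries. Upstream sequences are from RefSeq on GRCm38.p6.

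The members and gene lists were chosen with earlier results of these data known. All members, the paired genes, genes of a list past 2-fold (at most 6 a list) and the 3 most abundant of each list were to be named. The lists of T and NK cell and erythroid markers and of sorting genes, the Id to E protein ratio, the tally of Ets genes and the length comparison, and further genes named from the lists, were chosen after their values were seen. Kat6a, Spi1 and Adgre1 were matched by older symbols, and 1 listed symbol was not matched. For the marker lists only part of the genes past 2-fold are named. One listed gene is not reported here. Alternatives were other filters, pseudocounts of 0.1 and 1, other scalings and the length comparison. Calculations were made in Python 3.11.15 with scipy 1.17.1, pandas 2.3.3 and numpy 2.4.6, and figures with matplotlib 3.10.9.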

Additional observations from a re-analysis of the deposited data

How the results depend on the processing

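Each difference rests on 1 library per genotype, with no replicate to leave out. No paired analysis was possible because there is 1 library per genotype. Depth limits genes with few reads, such as Spib and Sox17, and not the core, whose least covered value, Lyl1 in WT, had about 249 reads. Setting the median, the trimmed mean or the upper quartile of the libraries equal moved all log2 ratios by at most 0.02, and with the median or the trimmed mean Lmo2 turned to the lower side within its interval, giving 8 members lower and 2 higher. No pseudocount changed the direction of a member.

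Rescaling both libraries to a total of 1000000 FPKM lowered every log2 ratio by 0.28. The core then had 1 gene (Erg) past 2-fold lower, 6 past 1.5-fold lower and a median of -0.61, Gata2 turned to -0.11, Lmo2 also turned, and Lyl1 alone was higher. Of all genes with at least 1 FPKM in either library, 18.3% were then past 2-fold lower and 32.7% past 1.5-fold lower. The share past 2-fold higher was 5.45%. The 2-fold lower counts became 1 for partners, 6 for relatives, 2 for other regulators and 3 for targets, and 1 Id gene was higher. Relative to genes of like length, the core median was -0.20, relatives had 3 genes lower, other regulators 2 lower and Id genes 1 higher. With genes above 0 in both libraries, Id genes had 1 higher, other regulators 2 lower and targets 1 lower. With at least 1 FPKM in both, Id genes had 1 higher, relatives and other regulators 0 lower, relatives 0 higher and targets 1 lower. With at least 10 FPKM in either, Id genes had 1 higher, and relatives, other regulators and targets had 0 lower and relatives 0 higher. With a pseudocount of 1, relatives had 0 higher, other regulators 0 lower and targets 1 lower. Relative to genes of like length or at that total, 14 log2 ratios of members, beside that of Gata2, lay outside their counting interval as deposited. In the other alternatives run, every member ratio lay within it, and whether a member's interval excluded 1 did not depend on the transcript length used.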
